A study of Mus musculus with 4 samples.

Results

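The 10 integrin subunit genes *Itga1*, *Itga2*, *Itga5*, *Itga6*, *Itga9*, *Itgav*, *Itgb1*, *Itgb3*, *Itgb4* and *Itgb5* were examined among the 18767 genes measured in single cells of mouse aorta. They were chosen by name as subunits of receptors for laminin, collagen and fibronectin, and their level and their difference between libraries were read from cells with more than 1200 detected genes. The method was SORT-seq, with 1 sorted cell in each well of a plate, in which a transcript is counted once, near its 3′ end, through its unique molecular identifier. There were 4 libraries, s001 and s002 labelled Jag1 ECKO and s003 and s004 labelled Jag1 ECWT. Mice of both groups were C57BL/6J with floxed alleles of *Jag1*, a Notch ligand, and both groups received tamoxifen. The Jag1 ECKO mice also carried Cdh5-CreERT2, which drives an inducible Cre recombinase in endothelial cells (EC), and the Jag1 ECWT mice lacked it. The mice of the study were young adult males, with 1 age range stated for all its experiments and none for these aortas alone. The number of animals behind each library is not given in the sources used here, so p-values measure the spread between these libraries, which may be technical. The aortas were digested with enzymes and live CD31+ CD45- cells were sorted.

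Of 824 cells with more than 1200 genes, 794 fell in 13 clusters with EC markers and are called EC-like, and 30 fell in 1 cluster with fibroblast and vascular smooth muscle (VSMC) markers. The EC-like cells numbered 194, 224, 137 and 239 in s001 to s004, and their counts summed to between 843202 and 1638595 per library. Levels are given as counts scaled to a library sum of 1000000 (CPM). The 10 EC markers summed to 13221 to 14804 CPM in EC-like cells of the 4 libraries and to 3779 CPM in the fibroblast/VSMC-like cells. *Ptprc*, which encodes the CD45 of the sort, lay between 0 and 2.78 CPM. *Jag1*, the targeted gene, was at 164 and 72.6 CPM in s001 and s002 and at 30.8 and 26.4 CPM in s003 and s004. This order is the opposite of what the labels say, so every direction below is that of the labels alone. Counts near the 3′ end do not show whether the floxed part of the gene was still present, which was not tested. The paper reports loss of *Jag1* in aortas of such mice by qRT-PCR and staining. Library s001 stood apart. All 29 cells of a cluster led by genes that respond to tissue dissociation were from it, and its capillary markers summed to 921 CPM against 204 to 254 CPM in the others. Well barcodes recur between libraries (278 of 355), as the same plate barcodes were used in each.

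An integrin is a pair of 1 α and 1 β subunit that spans the cell membrane and joins the matrix outside to the actin or intermediate filament skeleton inside. The β subunit carries the tail that binds talin and kindlin, and the α subunit largely sets the ligand. β1 pairs with many α subunits: α1 and α2 give collagen receptors, α3 and α6 laminin receptors, α5 the main fibronectin receptor, and α4 and α9 receptors for further ligands such as VCAM-1, tenascin-C and osteopontin. αv pairs with β1, β3 or β5 to bind the RGD motif of fibronectin and vitronectin. α6 is the only known partner of β4, which binds laminin and anchors intermediate filaments. In EC these receptors hold the cell to its basement membrane.

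*Itga1* and *Itga2*, which encode the collagen-binding α subunits, are neighbours on mouse chromosome 13, both on the minus strand, in GRCm38 at chr13:114953096-115101964 and chr13:114833081-114932100. Their gene bodies are separated by 20995 bases, yet *Itga1* was found at 52.1 ± 7.53 CPM (SD, n = 4 libraries) and *Itga2* at 0, 1.22, 3.56 and 0.70 CPM. Their promoters are shown with that of *Itgb1*, their common β subunit, at chr8:128685654-128733200 on the plus strand. Each run is the 300 bases around the gene start in RefSeq (GRCm38.p6, 250 before and 50 after), on the strand of the gene, 5′ to 3′, and 7 of the 10 subunits had an entry in that table. Capitals mark CCGGAA, the core of ETS factor motifs, GGGCGG, the core of Sp factor motifs, or GTGGGAA, a motif of the Notch effector RBPJ, on either strand.
Itgb1, chr8:128685404-128685703, plus strand: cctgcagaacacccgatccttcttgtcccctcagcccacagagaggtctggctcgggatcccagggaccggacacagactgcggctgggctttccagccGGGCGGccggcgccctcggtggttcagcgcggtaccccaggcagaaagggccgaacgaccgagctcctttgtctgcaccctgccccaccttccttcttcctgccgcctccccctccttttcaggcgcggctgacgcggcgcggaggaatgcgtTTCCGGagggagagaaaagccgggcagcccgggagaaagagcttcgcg
Itga1, chr13:115101915-115102214, minus strand: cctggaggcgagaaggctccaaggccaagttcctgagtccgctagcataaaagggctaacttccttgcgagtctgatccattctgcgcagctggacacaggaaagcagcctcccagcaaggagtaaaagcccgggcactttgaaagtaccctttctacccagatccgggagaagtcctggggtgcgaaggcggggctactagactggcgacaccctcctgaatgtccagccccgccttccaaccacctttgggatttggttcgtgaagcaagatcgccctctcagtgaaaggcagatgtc
Itga2, chr13:114932051-114932350, minus strand: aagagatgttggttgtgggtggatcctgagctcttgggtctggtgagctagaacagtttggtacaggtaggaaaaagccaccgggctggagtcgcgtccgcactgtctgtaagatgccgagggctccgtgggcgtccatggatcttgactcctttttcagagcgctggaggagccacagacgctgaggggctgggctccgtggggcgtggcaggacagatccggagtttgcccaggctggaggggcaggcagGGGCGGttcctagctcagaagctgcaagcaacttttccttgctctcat

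The *Itgb1* promoter held 1 ETS and 1 Sp match, that of *Itga2* held 1 Sp match, and that of *Itga1* held none of the 3 motifs. The letters of the ETS, Sp and RBPJ motifs occur in 14.9, 35.7 and 6.38% of the 32851 promoters of the table, and in 1, 5 and 0 of the 7 subunits' entries, of which that of *Itga9*, without a match, lies at an internal start 105002 bases from the annotated one. The *Itgb1* promoter was the richest of the 3 in C followed by G, with 27 such pairs against 12 for *Itga1* and 13 for *Itga2*, where the median promoter has 7. A match is a description of the letters and not a binding site.

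*Itgb1* was the highest of the 10 subunits. It was at 949, 765, 857 and 936 CPM in s001 to s004 (877 ± 84.9), and 93.2% of EC-like cells had a count of it. *Itga9*, which pairs with β1 and is needed for lymphatic valves, followed at 285, 251, 266 and 244 CPM (261 ± 18.4). *Itgb4* was at 308, 170, 209 and 179 CPM (216 ± 62.9), with s001 the highest, and its range overlapped that of *Itga9*. *Itga5* was at 104, 134, 103 and 75.8 CPM (104 ± 23.9). By library, the lowest share of EC-like cells with a count was 35.6% for *Itga5* (s004) and 89.8% for *Itgb1* (s003). The other 6 lay at 63.2 CPM or less in every library.

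The collagen receptor subunit *Itga1* was at 63.2, 48.8, 49.8 and 46.6 CPM. *Itgb5*, a partner of αv, was at 42.1, 55.5, 48.6 and 59.1 CPM, and *Itgav* itself was at 54.8, 31.1, 29.6 and 33.4 CPM. The ranges of *Itga1* and *Itgb5*, and those of *Itgb5* and *Itgav*, overlapped. *Itga6* split the libraries without regard to their label, at 29.5 and 24.9 CPM in s001 and s003 and at 9.15 and 9.04 CPM in s002 and s004. *Itgb3*, the β subunit of the vitronectin receptor, was at 21.1, 24.4, 11.9 and 7.65 CPM, a range that overlapped that of *Itga6*. *Itga2* came last with 6 counts in all, in 0.756% of EC-like cells, and at this depth it was not told apart from background. For comparison, *Itga8*, an α subunit of smooth muscle, was seen in 1.76% of EC-like cells (14 counts). It was at 3.17 CPM in EC-like cells and at 878 CPM in the fibroblast/VSMC-like cells. In the order of means, neighbours whose ranges over libraries overlapped were *Itga9* and *Itgb4*, *Itga1* and *Itgb5*, *Itgb5* and *Itgav*, and *Itga6* and *Itgb3*. Because the tags come from 1 end of the transcript, no division by length was made, but the efficiency of capture can still differ between genes.

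**Figure D1:**
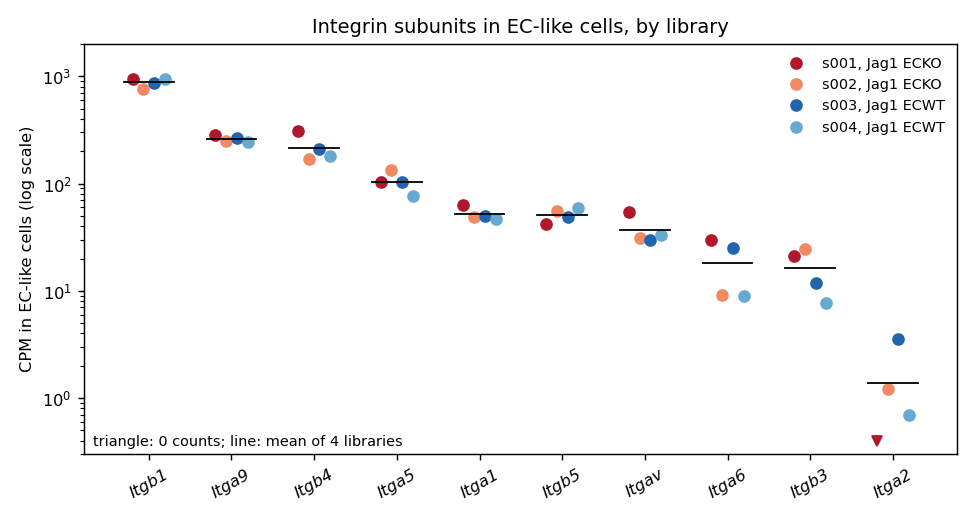
Level of each of the 10 integrin subunits in EC-like cells, in CPM on a log axis, with 1 point per library and a line at the mean of the 4 libraries. *Itgb1* lies above all others in each library, and *Itga2* lies at or near 0, with the triangle for s001 marking 0 counts.

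Some α subunits outside the 10 were as high as those within. *Itga3*, the α subunit of the laminin receptor α3β1, was at 319, 277, 213 and 242 CPM, and *Itga4*, which binds VCAM-1 and fibronectin as α4β1, was at 36.9, 151, 159 and 199 CPM, with s001 the lowest. Each of the other 14 integrin genes with a count (*Itgae*, *Itga10*, *Itgb6*, *Itga8*, *Itgam*, *Itga2b*, *Itgb8*, *Itgb2*, *Itga11*, *Itgad*, *Itgal*, *Itga7*, *Itgb7* and *Itgb2l*) had a mean of 4.06 CPM or less. The 12 α subunits that pair with β1 summed to 883 ± 30.8 CPM, and *Itgb1* divided by this sum was 1.05, 0.838, 1.00 and 1.09 in s001 to s004. *Itga9* and *Itga3* together made up 59.3 ± 5.00% of the α sum. The laminin pair was far from even, as *Itgb4* was 10.4, 18.6, 8.38 and 19.8 times the level of *Itga6*, the partner of β4. The sum of *Itgb3* and *Itgb5* was 67.6 ± 8.62 CPM, beside 37.2 ± 11.8 CPM for *Itgav*.

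To ask which receptors a single cell could form, cells with a count of the transcripts of both subunits were counted. Protein and pairs at the cell surface were not measured. *Itga3* with *Itgb1* was found in 62.9 ± 3.41% of EC-like cells (SD over libraries) and *Itga9* with *Itgb1* in 61.8 ± 6.13%. *Itga4* with *Itgb1*, which binds fibronectin and VCAM-1, was found in 14.4% of cells in s001 and in 59.8, 50.4 and 59.0% in s002 to s004. *Itga5* with *Itgb1*, the fibronectin receptor α5β1, was found in 39.2 ± 7.38%, and *Itga1* with *Itgb1*, the collagen receptor α1β1, at 20.5 ± 2.27%. *Itgav* was found with *Itgb1* in 17.6% of cells (SD 1.96), with *Itgb5* in 4.86 ± 0.749% and with *Itgb3* in 1.64 ± 1.14%. Transcripts of both subunits of the laminin receptor α6β4 were seen in 4.07 ± 1.25% of cells, although *Itgb4*, with or without *Itga6*, was seen in 60.1%. The shares depend on the depth of a cell. With each cell thinned to 2833 counts, which left 714 cells, they were 42.2 ± 6.03% for *Itga3* with *Itgb1*, 41.1 ± 2.49% for *Itga9*, 21.2 ± 4.12% for *Itga5*, 11.4 ± 2.97% for *Itga1*, 7.21 ± 2.33% for *Itgav* and 28.6 ± 13.9% for *Itga4*. They were 1.73 ± 1.36% for α6β4, 0.861 ± 0.323% for *Itgav* with *Itgb5* and 0.633 ± 0.531% for *Itgav* with *Itgb3*. *Itga6* with *Itgb1*, the laminin receptor α6β1, was found in 6.71 ± 2.56% of cells as sequenced and in 4.38 ± 3.31% of thinned cells. In thinned cells *Itga2* with *Itgb1* was found in 0 of 714 cells, at this depth not detectable. *Itgb1* was counted in 93.2% of EC-like cells, so for its pairs the joint share could differ little from the product of the single shares. For *Itga9* with *Itgb1* the 2 were 62.6 and 61.7%. Without *Itgb1*, the joint share and the product were 4.79 and 4.43% for *Itgav* with *Itgb5* and 1.51 and 1.52% for *Itgav* with *Itgb3*. They were 3.90 and 4.24% for *Itga6* with *Itgb4*. In thinned cells these were 0.840 and 1.22%, 0.560 and 0.434%, and 1.54 and 1.89%, from 6, 4 and 11 cells. A missing count in a cell does not show that the cell lacked the transcript.

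**Figure D2:**
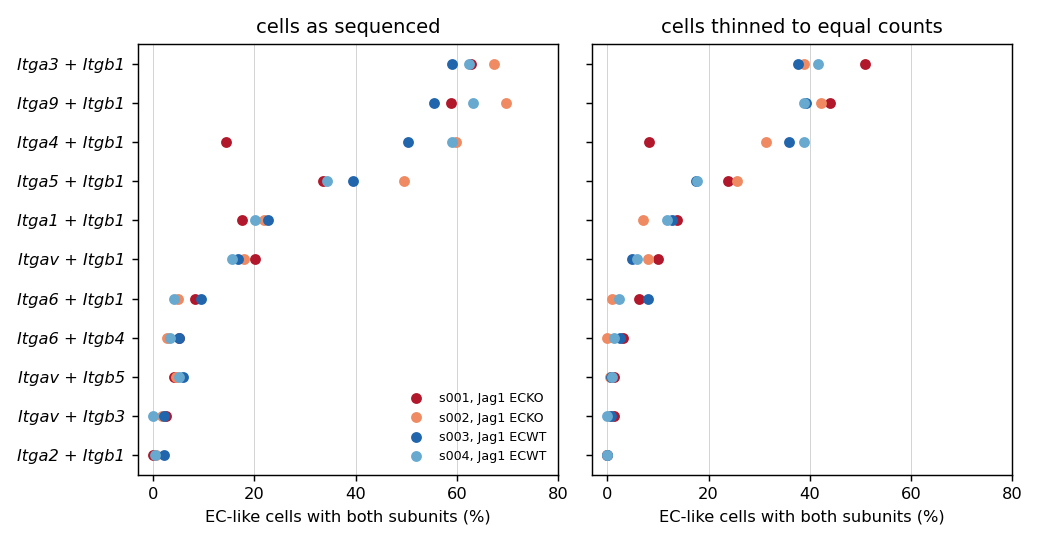
Share of EC-like cells with a count of both subunits of each receptor, in percent, with 1 point per library, as sequenced on the left and with every cell thinned to 2833 counts on the right. The pairs of *Itgb1* with *Itga3* and *Itga9* have the highest means in both panels, although *Itga9* and *Itga4* tie at 38.8% in thinned cells of s004, and *Itga4* with *Itgb1* is lowest in s001.

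Several subunits differed together in 2 small clusters of EC-like cells. The first, of 17 cells (4, 4, 8 and 1 in s001 to s004), was led by *Gpihbp1*, *Cd36*, *Igfbp3*, *Scarb1* and *Cd300lg* and 5 of 7 markers of capillary or lipid-handling EC were raised in it. *Gpihbp1* encodes the protein that holds lipoprotein lipase on capillary endothelium, and *Cd36* a fatty acid receptor. The second, of 32 cells (18, 9, 3 and 2), was led by *Lrg1*, *Fabp4*, *Pde2a*, *Nr2f2* and *Cd36* and had 3 capillary and 2 lymphatic markers raised. The clusters were built from all genes of the same cells, *Itga5*, *Itgb3* and *Itgb5* among the 2000 variable genes used, so their values are a description without a test.

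*Itga6* was at 217 CPM in the *Gpihbp1*-led cluster (15 counts, exact 95% Poisson interval 121 to 358, counting error only) and at 113 CPM in the *Lrg1*-led cluster (20 counts, 69.0 to 174). In the other 745 EC-like cells it was at 9.08 CPM (6.55 to 12.3). Together these 49 cells held 35 of the 77 *Itga6* counts, and the ratio of their level to that of the other EC-like cells was 15.6 (9.70 to 25.1). In the 2 clusters joined, *Itga6* was at 127, 129, 175 and 217 CPM in s001 to s004, and in the other cells at 16.7, 3.20, 17.4 and 6.34 CPM. The ranges did not overlap, and each library showed the same order. With each library left out in turn, the level in the *Gpihbp1*-led cluster lay between 211 and 221 CPM.

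*Itga9* and *Itgb5* lay the other way. *Itga9* had 1 count in the *Gpihbp1*-led cluster (14.5 CPM, interval 0.366 to 80.5) and was at 124 CPM in the *Lrg1*-led cluster, against 267 CPM in the other EC-like cells, a ratio of 0.350 (0.221 to 0.527) for the 2 clusters joined. By library it was at 127, 116, 0 and 0 CPM in these clusters and at 306, 258, 279 and 247 CPM elsewhere. *Itgb5* had 0 counts of 246288 in the 49 cells, which allows a share of cells with a count of up to 6.12% at their depth, and 190 of the other 745 EC-like cells had one (25.5%). Taking 3 counts as the floor over the group, its level there was at least 4.56-fold lower than the 55.6 CPM of the other cells, while the exact 95% interval of the ratio, which is wider than this floor, was 0 to 0.271. Without s001, which held 22 of the 49 cells, the bound was 2.60-fold. By library *Itgb5* was at 47.7, 58.3, 51.0 and 59.8 CPM in the other cells, and in s003 and s004 the floor of the 49 cells (74.9 and 163 CPM) lay above that level, so no difference was detectable at the depth of those libraries alone. *Itgb1* was at 479 CPM in the 49 cells and at 888 CPM elsewhere, a ratio of 0.540 (0.446 to 0.648), and lower in each of the 4 libraries. In s004 this rested on 3 cells and 13 counts (707 CPM, interval 376 to 1208), against 939 CPM elsewhere. In s001 the *Gpihbp1*-led cluster alone (4 cells, 18 counts) was at 1003 CPM, against 995 CPM in the other cells. *Itgb4* was at 367 CPM (283 to 468) in the *Lrg1*-led cluster, where s001 held 41 of the 65 counts and the level without it was 283 CPM, against 200 CPM (188 to 214) in the other cells. In the *Gpihbp1*-led cluster it had 13 counts (188 CPM, upper limit 321), an interval that overlapped both. *Itga3* was at 288 CPM (214 to 379) in the *Lrg1*-led and 116 CPM (8 counts, 49.9 to 228) in the *Gpihbp1*-led cluster, intervals that overlapped each other. In the other cells it was at 265 CPM (251 to 280), above the interval of the *Gpihbp1*-led cluster and within that of the *Lrg1*-led cluster. For the 49 cells joined, the intervals of the ratio for *Itga1*, *Itga3*, *Itga5*, *Itgav*, *Itgb3* and *Itga4* included 1. The 49 cells had a median of 4168 counts per cell, against 5338 in the other EC-like cells.

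Among the 13 EC-like clusters *Itgb5* was highest, at 103 CPM, in a cluster of 88 cells led by *Sfrp2* and *Thbs1*, which also had the lowest *Itgb4*, at 120 CPM. Of its cells 55 were from s004, and without them *Itgb5* was at 109 and *Itgb4* at 105 CPM. *Itgb3* (39.1 CPM) and *Itga9* (355 CPM) were highest in a cluster of 56 cells led by *Pthlh*, *Ifit1*, *Klk10* and *Hbegf*. Library s002 gave 8 of these cells and 11 of their 17 *Itgb3* counts, and without it *Itgb3* was at 16.9 CPM there. *Itga5* was highest, at 165 CPM, in a cluster of 31 cells led by *Coch* and *Fbln5*, of which 21 were from s002. *Itgav* and *Itgb1* were highest, at 81.6 and 1244 CPM, in a cluster of 39 cells of which 26 were from s001. *Itga1* was highest, at 87.4 CPM, in the cluster led by dissociation genes, all from s001. Single libraries also supplied most cells of the last 3 clusters. Without s002 *Itga5* was at 133 CPM in the first of them, without s001 *Itgav* was at 42.9 and *Itgb1* at 1114 CPM in the second, and in the third cluster and library cannot be told apart. *Itga4* was lowest in the cluster led by dissociation genes, at 20.2 CPM (3 counts, interval 4.16 to 59.0), and s001 was also the library with the lowest *Itga4*. *Itgb5* had 2 counts (13.6 CPM, interval 1.65 to 49.1) in the cluster of 39 cells, and *Itga6* had 1 count (1.81 CPM, interval 0.0459 to 10.1) in the cluster led by *Sfrp2*. In the fibroblast/VSMC-like cells *Itgb5* was at 235, *Itgav* at 137, *Itgb3* at 61.4 and *Itgb4* at 54.2 CPM, beside 1080 CPM for *Itgb1*.

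**Figure D3:**
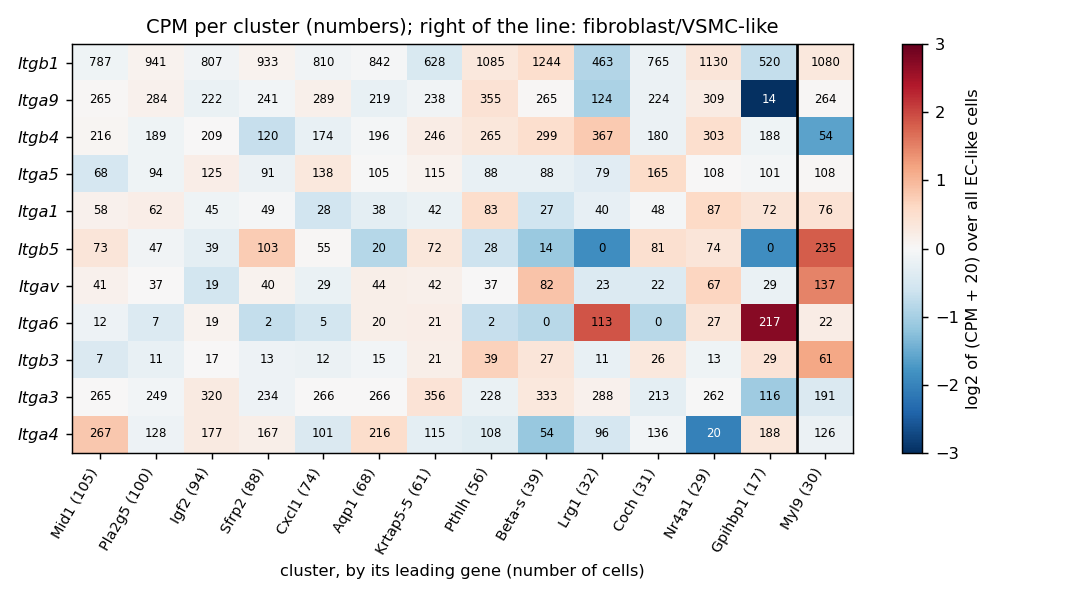
Level of the subunits in each cluster, with the printed number in CPM and the colour giving the log2 ratio to all EC-like cells after adding 20 CPM to each. The columns led by *Lrg1* and *Gpihbp1* are high in *Itga6* (113 and 217 CPM) and have 0 counts of *Itgb5*, and the last column holds the fibroblast/VSMC-like cells.

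The genes whose levels over the 13 EC-like clusters were most like those of *Itga6* were *Agtrap* (Pearson r = 0.96), *Cd36* (0.94) and *Pcp4l1* (0.94), on the log2(CPM + 20) scale. *Cd36* is also one of the leading genes of both clusters above, so these values restate them. For *Itga9* they included *Cpq* (0.97) and *Gata6* (0.96), and for *Itgb5* they were *Efnb2* (0.94), the ephrin of arterial endothelium, *Tm4sf1* (0.93) and *Bmp4* (0.92). For *Itgb1* they were *Dctn6*, *Zfp672* and *Azin1* (0.89 to 0.91), and for *Itgb4* *Mettl14*, *Kifap3* and *Ogt* (0.88 to 0.91). For *Itgav* they were *Hpse*, *Brd9* and *Slc35c2* (0.87 to 0.89), for *Itga5* *Tspan2*, *Pdgfd* and *Itpripl2* (0.82 to 0.87), for *Itgb3* *Ifit1*, *Dip2a* and *Arhgdia* (0.81 to 0.86), and for *Itga1* they included *Ppp2r5b* (0.85). Among the subunits themselves *Itga6* ran against *Itga9* (-0.86), *Itgb1* (-0.76) and *Itgb5* (-0.69). The points are 13 clusters drawn from the same 4 libraries, and the best of 9485 genes is high by selection.

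Between the labels, no subunit passed the test. Counts were summed over EC-like cells in each library and compared with edgeR's quasi-likelihood test with Benjamini-Hochberg adjustment over 9485 genes. *Itga2* was too low to be tested, and of the other 9 subunits 0 had an adjusted p below 0.05, beside 0% (0) of all genes tested. At an unadjusted p below 0.05 there was 1, *Itgb3*, beside 4.39% of all genes (416) and, in the same, higher direction, 2.18% (207). DESeq2 called 0 of the 9 and 1 gene of all tested (0.0105%), *Jag1*. The smallest p that exact permutation of the labels allows with these 4 libraries is 0.333.

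*Itgb3* had 20 and 40 counts in s001 and s002 and 10 and 11 in s003 and s004. Both libraries labelled Jag1 ECKO lay above both labelled Jag1 ECWT, as they did for 15.6% of all genes tested, and 18.8% of genes lay the other way round. The fitted difference between the labels was 1.31 on the log2 scale, with Jag1 ECKO the higher (SE 0.41, edgeR adjusted p = 0.921). VSMC markers in the same sums lay at 599 and 579 CPM against 406 and 338 CPM. Without any cell holding a count of *Myh11*, *Cnn1*, *Lum* or *Col1a1*, *Itgb3* was at 22.3 and 28.5 against 10.9 and 9.42 CPM. The 5 measured markers of platelets, which are rich in β3, summed to 1.05 and 1.83 against 9.49 and 2.78 CPM, with no count of *Gp1bb*. Whether smooth muscle or platelet material had a part in the *Itgb3* difference was not tested. *Itga5* also did not overlap between the labels, with 104 and 134 against 103 and 75.8 CPM, though s001 and s003 were nearly equal. Its log2 fold change was 0.47 (SE 0.24, edgeR adjusted p = 0.921).

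The other 7 tested subunits overlapped between the labels. Their log2 fold changes were 0.41 (SE 0.31) for *Itgav*, 0.30 (SE 0.25) for *Itgb4*, 0.22 (SE 0.23) for *Itga1*, 0.20 (SE 0.62) for *Itga6*, 0.09 (SE 0.17) for *Itga9*, -0.05 (SE 0.18) for *Itgb1* and -0.11 (SE 0.27) for *Itgb5*. The SE of *Itga6* was the widest of the 9. Without the *Gpihbp1*- and *Lrg1*-led clusters, *Itga6* lay at 16.7, 3.20, 17.4 and 6.34 CPM in s001 to s004, and its log2 fold change turned to -0.32. The median over the 9 subunits was 0.22, beside -0.0013 over all genes tested. Outside the 10, *Itga3* gave 0.40 (SE 0.18) and *Itga4* -0.84 (SE 0.49), both with an adjusted p of 0.921. Leaving out s002, so that s001 alone stood for its label, *Itga4* gave -2.33. It was at 36.9 CPM in s001, while s002, of the same label, was at 151 CPM, beside 159 and 199 CPM in s003 and s004.

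**Figure D4:**
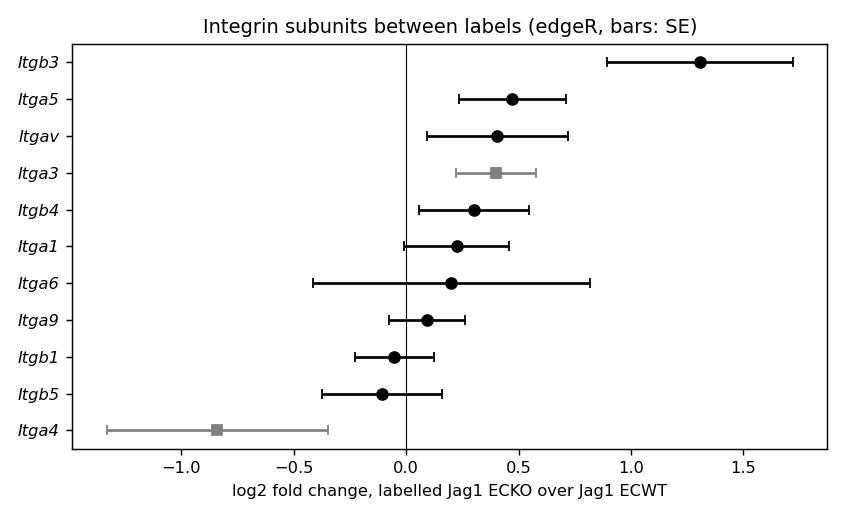
Log2 fold change between the labels for each integrin subunit tested, with positive values for higher in Jag1 ECKO, in EC-like cells of 2 libraries per label, with bars for the SE of the edgeR fit. Circles mark the 9 subunits tested of the 10 and squares *Itga3* and *Itga4*; *Itgb3* lies farthest from 0 and none passed the adjusted threshold.

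Transcripts of the matrix proteins that these receptors bind were measured in the same cells. Of the laminin chains, *Lamb2* was highest at 391 ± 32.2 CPM, followed by *Lama5* (70.9 ± 17.6), *Lamc1* (62.7 ± 21.3) and *Lama4* (47.7 ± 13.8), the α5 and α4 chains being those of vascular basement membranes. Of the collagens, *Col1a2* was at 350 ± 99.0, *Col4a1* at 337 ± 28.8, *Col5a2* at 237 ± 23.3 and *Col4a4* at 204 ± 32.3 CPM. Fibroblast markers summed to 987 to 1531 CPM in the EC-like sums, and their part in the levels of *Col1a2* and *Col5a2* was not tested. Among RGD and other ligands, *Vwf* was at 1738 ± 237, *Fn1*, the ligand of α5β1, at 819 ± 68.2, *Fbln5* at 660 ± 36.0 and *Cyr61* at 593 ± 215 CPM.

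None of the 102 genes tested on the 7 lists of other integrin genes, ligands and partners had an adjusted p below 0.05, and 11 had an unadjusted p below 0.05, a share to be read beside the 4.39% of all genes tested (2.18% in the higher direction). Of 7 laminin chains tested, 0 had an unadjusted p below 0.05 in the higher direction and 1 in the lower, *Lamc1* (-0.71, SE 0.25), with a list median of -0.02. Of 14 collagen genes, 2 were in the higher direction, *Col8a1* (0.76, SE 0.24) and *Col18a1* (0.79, SE 0.28), and 1 in the lower, *Col4a3* (-1.15, SE 0.24), with a median of -0.22. Of 15 RGD and other ligands none was in either direction, and the median was 0.02. The smallest p among them was that of *Vwf* (0.34, SE 0.17). Of 38 activators and adaptors, 3 were in the higher direction, *Flna*, *Ilk* and *Tgfb1i1*, and 1 in the lower, *Rap1a* (-0.65, SE 0.25), with a median of 0.07. *Flna* encodes filamin A, which links β tails to actin, and was at 321 and 296 against 202 and 201 CPM (0.64, SE 0.17). It was at 3053 CPM in the fibroblast/VSMC-like cells, and the VSMC markers of the EC-like sums ran in the same order (599 and 579 against 406 and 338 CPM). Without cells holding a count of *Myh11*, *Cnn1*, *Lum* or *Col1a1*, *Flna* gave 0.72 (SE 0.17) and *Tgfb1i1* 0.38 (SE 0.21). The most abundant adaptors were *Zyx* at 1027 ± 137, *Tns1* at 645 ± 90.2, *Actn4* at 545 ± 52.9 and *Dst* at 496 ± 14.1 CPM. Of 18 partner membrane proteins none was in either direction, and the highest were *Cav1* at 1611 ± 179, *Nrp1* at 1304 ± 148, *Cd81* at 697 ± 99.8 and *Bsg* at 508 ± 110 CPM, while *Plaur* had the smallest p (-0.90, SE 0.49). *Bcam*, a receptor for the laminin α5 chain that is no integrin, was at 941 ± 176 CPM and was 1 of 3 other matrix receptors of 8 in the higher direction (0.45, SE 0.19), with *Cd36* (1.57, SE 0.58) and *Lyve1* (1.42, SE 0.54). *Cd36* was at 202 CPM in s001 and at 61.7 CPM or less in the others, and s001 also held 22 of the 49 cells of the *Gpihbp1*- and *Lrg1*-led clusters. *Lyve1*, a hyaluronan receptor of lymphatic endothelium, was highest in s002.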

How the data were processed

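Live CD31+ CD45- aortic cells were profiled by SORT-seq. Reads were aligned to GRCm38 with STAR, and Seurat 3.1 is named in the submitters' processing notes; the version of STAR is not given in the sources used here. The deposited values are estimated counts, the numbers of UMIs that the authors corrected for chance repeats and did not normalize. Each value was rounded to a whole number here.

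Cells with more than 1200 genes were grouped into clusters in R 4.3.3 by Seurat 5.3.0 (2000 variable genes, 12 principal components, the lowest resolution that gave 14 clusters, 2.3). A marker was raised in a cluster when its CPM plus 20 was 3 times that of the remaining cells. Clusters that held at least 7 EC markers above 0.333 times the mean were EC-like, and those with at least 6 raised markers of fibroblasts and VSMC were fibroblast/VSMC-like, thresholds set after seeing the clusters. Doublets were not called. EC-like cells were summed per library (949273, 1638595, 843202 and 1438721 in s001 to s004) and tested with edgeR 4.0.16 (TMM, filterByExpr, quasi-likelihood, Benjamini-Hochberg), with DESeq2 1.42.0 as an alternative. Intervals cover counting error only. Counts were also simulated for 4 libraries of the same sizes and 9485 genes, with 1 common dispersion (0.0342) for every gene. There edgeR found 17.2% of the genes given a log2 change of 1 and 89.0% at a log2 change of 2. These are averages over all genes and may not hold for genes that vary more between libraries. In the data *Jag1*, with a fitted log2 fold change of 2.03, had an edgeR adjusted p of 0.921.

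The subunits and all lists were chosen with earlier results of these data known. Named are the 10 subunits, the other integrin genes with a count, from each list the 4 highest genes and that of smallest p, the 3 genes most like each subunit over clusters (some are not reported here), markers, *Jag1* and the 5 leading genes of a described cluster; list genes with an unadjusted p below 0.05 were added after their values were seen. Cells were also thinned to 2833 counts, the 10th percentile. Gene positions are from GENCODE and promoters from RefSeq. Alternatives changed the gene minimum, cells, resolution, scaling, filter, tool, depth and libraries. Figures were drawn with matplotlib 3.10.9.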

Additional observations from a re-analysis of the deposited data

How the results depend on the processing

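The count of subunits called between the labels was 0 in each of the 20 alternatives. *Itgb3* was positive in 20 of 20, with a log2 fold change of 1.02 to 1.57 and an edgeR or DESeq2 adjusted p of 0.0957 to 1.00, and *Itga5* in 20 of 20, at 0.21 to 0.70 (lowest adjusted p = 0.0759, without s001). The sign of *Itga6* turned in 3, to -0.68 without s001, -0.39 without s004 and -0.32 without the *Gpihbp1*- and *Lrg1*-led clusters, that of *Itgb4* to -0.10 without s001 and that of *Itga1* to -0.14 in thinned cells. *Itgb5* turned to 0.24 with the fibroblast/VSMC-like cells included, where its level was 60.3 CPM, to 0.10 without s001 or s004, and was at 3.75e-05 without cells with a fibroblast or VSMC count. *Itgb1* turned to 0.04 without s002 and 0.07 without s004. With a library left out, *Itga6* lay between -0.68 and 0.99 (0.89 without s002, 0.99 without s003), *Itgav* between 0.05 without s001 and 0.74 without s002, and *Itgb4* between -0.10 without s001 and 0.64 without s002. Over all genes, 0 were called, against 67 without a filter on low counts, 1 by DESeq2 and 0 to 156 with a library left out (156 without s001, 143 without s002, 0 without s003 and 1 without s004). Over the 7 pathway lists, 0 of 102 genes tested were called, against 2 of 142 without a filter (*Cd36* and *Col4a3*), beside 67 of 18355 over all genes in that fit. The calls on the lists also depended on which library was left out. In fits with a library left out the lone library is assumed to vary like the others, and the cause of the higher counts was not tested. Alternatives added after seeing the data left out cells with a count of *Myh11*, *Cnn1*, *Lum* or *Col1a1*, or the *Gpihbp1*- and *Lrg1*-led clusters. No paired analysis was possible because no replicate number in the labels pairs the libraries. Depth limits the shares of cells with both subunits, which fell with thinning, and levels near the 6 counts of *Itga2* cannot be compared.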
